A study of Mus musculus with 30 samples.

Results

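T1 cells of the multipotent progenitor subset MPP3 were compared between mice labelled KOiMOS and mice labelled WTiMOS, both at 3 months of age. The comparison used 6 of the 30 libraries of the series, 3 from each genotype, chosen by their column names in the deposited tables. Of 24421 genes listed, 12068 reached at least 1 TPM (a level scaled for transcript length and library size) in at least 3 of the 6 libraries and were tested. RNA of MPP3 sorted from bone marrow was sequenced after amplification of its cDNA with a low-input kit. The series concerns Bcl11a, and its design text speaks of a role of Bcl11a within MPP3 and of its overexpression in wild-type MPP3. The labels do not say what distinguishes T1 from T2 cells, what the KOiMOS allele removes, which cells recombine, or whether the 3 replicates are separate mice, so the p-values measure only the spread between these libraries. All 6 KOiMOS libraries were deposited in 1 table and the 6 WTiMOS libraries of the same age and subset in another. Genotype and table therefore cannot be told apart in this comparison. T2 cells of the same 2 tables, 3 libraries per genotype, served to show where the T1 difference was also found in T2 cells.

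MPP3 descend from blood stem cells, have lost long-term self-renewal and are known mainly for giving rise to granulocytes, monocytes and macrophages. Bcl11a is a zinc finger repressor that recruits the NuRD complex and other corepressors. It is best known for silencing fetal globin genes in red cells and for being required in B cell and lymphoid progenitors and in dendritic cells. T1 libraries of both genotypes held RNA of the 8 progenitor and MPP3 markers checked (Kit, Ly6a, Cd34, Cd48, Fcgr3, Flt3, Cd27, Spn). Each averaged at least 1 TPM, and they summed to 3091 to 3254 TPM in KOiMOS and 1770 to 1882 in WTiMOS. Flt3 is the marker by which MPP4 are told from MPP3, so these levels do not show that the cells were MPP3.

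The libraries differed as a whole in ways that run with the 2 tables. KOiMOS T1 libraries held 11943 to 11964 genes at 1 TPM or more, and WTiMOS T1 libraries 11502 to 11598. Genes above 0 numbered 15698 to 16280 in KOiMOS T1 and 13921 to 14334 in WTiMOS T1. Replicates correlated at r of 0.995 to 0.996 across genes in KOiMOS and 0.984 to 0.987 in WTiMOS, and the median SD of a gene was 0.077 and 0.16 on the log2 scale. The ribosomal precursor Rn45s stood at 4615 to 5649 TPM in KOiMOS and 2143 to 2620 in WTiMOS. All 4 Y-linked genes tested were called higher in KOiMOS, with summed levels of 114, 109.9 and 111 TPM against 64.2, 76.6 and 78.9, and Xist, the RNA of the inactive X chromosome, was called lower (21.6, 22.8 and 21.0 against 29.1, 32.7 and 28.2), so each of the 6 libraries held RNA of both kinds. The part of these differences in the results was not tested, and read depth cannot be had from TPM.

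Bcl11a itself, on GRCm38 at chr11:24078056-24174123, plus strand, did not show a loss of RNA in the libraries labelled KOiMOS. Its level was 68.8, 69.03 and 73.2 TPM in KOiMOS T1 and 43.8, 48.5 and 43.5 in WTiMOS T1, and the groups did not overlap (log2 0.63 ± 0.072, SE, adjusted p = 7.12e-05). Differences are KOiMOS minus WTiMOS on the log2(TPM + 1) scale, which understates changes of low genes, and adjusted p-values are limma's with Benjamini-Hochberg adjustment. In T2 cells the values were 69.8, 64.3 and 70.6 in KOiMOS and 76.3, 85.3 and 73.8 in WTiMOS (log2 -0.20). The genotype difference in T1 exceeded that in T2 (log2 0.82 ± 0.11, SE, adjusted p = 0.000183). The 3 WTiMOS T1 libraries were the low ones of the 12. A lost exon need not lower the TPM of a whole gene, so the level does not check the genotype label. Among all genes tested, 38.0% were called higher and 28.3% lower at an adjusted p under 0.05 (limma). Of 25 tested genes for Bcl11a, its paralog and its corepressor partners, 10 were called higher and 10 lower. Among them Dnmt1, the maintenance DNA methyltransferase, was higher (119.6, 116 and 113 against 34.8, 43.4 and 36.9 TPM, log2 1.58 ± 0.087, SE, adjusted p = 7.07e-07). The NuRD deacetylase Hdac2 was lower (13.7, 12.7 and 14.2 against 49.5, 51.2 and 62.9, log2 -1.93 ± 0.11, SE, adjusted p = 9.42e-07), and its relative Hdac1 was lower by a smaller amount (log2 -0.74). Sin3a, the scaffold of another deacetylase complex, was higher (log2 1.36).

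The 2 genotypes differed at most genes. At an adjusted p under 0.05 (limma), 8007 of the 12068 genes (66.3%) were called, 4588 higher in KOiMOS (38.0%) and 3419 lower (28.3%). A change of at least 2-fold on the log2(TPM + 1) scale was found for 1653 of the higher and 834 of the lower genes. For 8588 genes (71.2%) the 3 libraries of one genotype did not overlap the 3 of the other. Shares of this size are the background against which every gene group below has to be read.

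Most of these differences were not particular to T1 cells as far as a test could tell. The genotype difference in T1 was set against that in T2 in a fit of 12 libraries, which cancels any shift that both cell types of a table share, and 2632 of 12609 genes (20.9%) were called there. Of the 8007 genes called in T1, 6048 (75.5%) were not called as differing from T2, and 5740 of these had the same sign in T2. The other 1959 differed, and 1355 of them were larger in T1, 766 higher and 589 lower in KOiMOS. Among all genes the T1 difference lay above the T2 difference for 1644 and below it for 988, but this split depends on scaling: after median-ratio rescaling the counts were 917 and 1465. Without KOiMOS T1 replicate 1 or KOiMOS T2 replicate 1 the first of these was 1076 and 1075 in place of 1644. The median of this contrast over all genes was 0.14 as deposited and -0.0067 after rescaling, so such calls are relative to that shift. A further count describes which libraries stood apart among genes picked by these calls. Of 645 genes called lower in T1 with a T1 difference below that in T2, all 3 WTiMOS T1 libraries lay above the other 9 libraries for 417, and all 3 KOiMOS T1 libraries lay below the other 9 for 272. Of 889 genes called higher with a T1 difference above that in T2, all 3 WTiMOS T1 libraries lay below the other 9 for 506, and all 3 KOiMOS T1 libraries lay above them for 355. The calls that picked both sets already draw the T1 groups to opposite ends. The same counts over all genes were not made, so these describe the picked genes only.

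**Figure D1:**
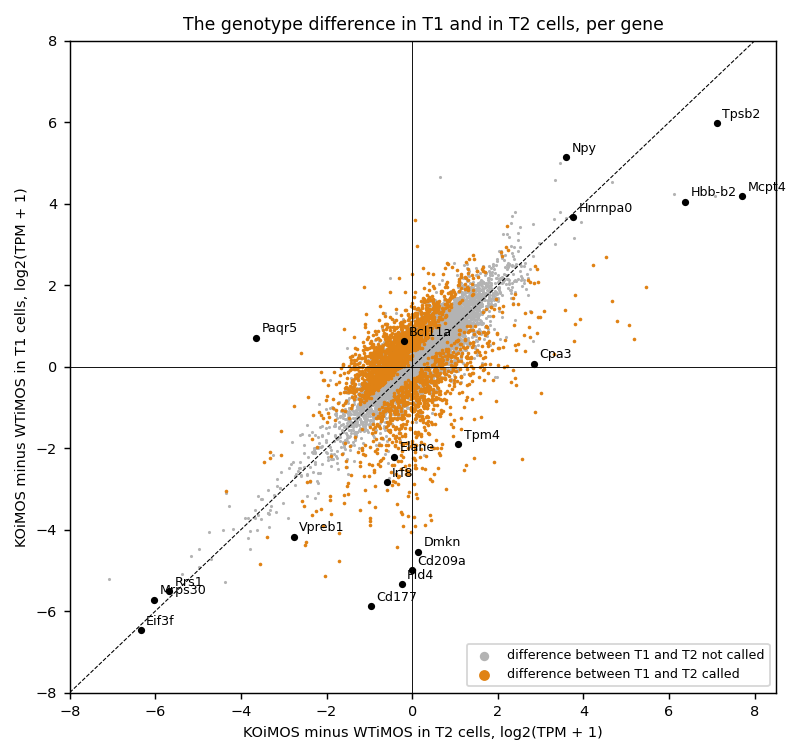
Each point is a gene, with the KOiMOS minus WTiMOS difference in T2 cells on the x axis and in T1 cells on the y axis, both on the log2(TPM + 1) scale; orange points are genes whose T1 and T2 differences were called as unlike, the dashed line marks equal differences, and black points are named genes. Eif3f, Mrps30 and Rrs1 lie near the dashed line far below 0, while Pld4, Cd209a and Dmkn lie far below 0 in T1 and near 0 in T2. Cd177 lies far below 0 in T1 and less far below it in T2, where WTiMOS libraries held 0, 5.52 and 0.161 TPM.

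The largest single difference was that of Eif3f, which encodes a subunit of translation initiation factor 3. Its level was 8.58, 8.61 and 9.56 TPM in KOiMOS T1 and 892, 887 and 848 in WTiMOS T1 (log2 -6.47 ± 0.062, SE, adjusted p = 9.53e-11), at chr7:108934417-108942951, plus strand. T2 cells gave log2 -6.34. The means of the other 6 groups of the series, all WTiMOS, ran from 148 to 344 TPM, so both KOiMOS groups were below every other group.

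Several more of the 15 genes with the largest decreases followed that pattern. Mrps30, a mitochondrial ribosome protein, was at 1.25, 1.22 and 1.80 TPM against 132, 108 and 140.4 (T1 log2 -5.72, T2 -6.03), and Rrs1, a regulator of ribosome assembly, at 2.12, 1.87 and 1.91 against 127, 131 and 145 (T1 log2 -5.51, T2 -5.68). Polr2m, a subunit associated with RNA polymerase II, was at 10.6, 13.9 and 13.1 against 354, 360.5 and 354 (T1 log2 -4.73, T2 -4.70). Scand1, Zfp771, Tysnd1 and Peli1, the last a ubiquitin ligase of innate immune signalling, had T1 differences of log2 -5.30, -4.91, -4.66 and -4.47 and T2 differences of -4.36, -4.98, -5.17 and -4.97, and no KOiMOS T1 library held more than 2.34 TPM of any of them. None of these 8 genes, Eif3f included, was called as differing between the T1 and T2 contrasts.

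A matching set was high in both KOiMOS groups. Arglu1, an arginine and glutamate rich protein, stood at 295, 314 and 333 TPM in KOiMOS T1 and 23.8, 25.7 and 23.7 in WTiMOS T1 (log2 3.63 ± 0.068, SE, adjusted p = 3.67e-09), and T2 cells gave log2 3.31. Hnrnpa0, an RNA-binding protein, was at 230.2, 234 and 208 against 16.4, 17.4 and 16.3 (T1 log2 3.67, T2 3.76). Ulk1, the kinase that starts autophagy, was at 58.6, 53.7 and 54.9 against 2.99, 3.14 and 4.55 (T1 log2 3.65, T2 3.60). The KOiMOS level of these 3 exceeded the mean of each other group of the series. Zfp384, a zinc finger factor, was at 27.6, 30.6 and 26.6 against 0.642, 1.77 and 1.10 (T1 log2 3.79), but here the other 6 groups averaged 12.3 to 25.4 TPM, so that the 3-month WTiMOS MPP3 libraries were the ones that stood apart.

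Small nucleolar RNAs, which guide the chemical modification of ribosomal RNA, were higher as a class: 70 of 90 tested were called higher and 2 lower, with a median log2 difference of 1.30 in T1 and 0.79 in T2, against 0.13 and -0.029 over all tested genes. Snord99 was at 41.2, 38.6 and 46.9 TPM in KOiMOS and 0.989, 0.224 and 0 in WTiMOS, and Snord52 at 70.97, 84.2 and 79.1 and 4.06, 1.88 and 1.76. Both were named by size among genes whose groups did not overlap, and Snord99 passed the filter only through KOiMOS libraries. T2 cells showed log2 3.45 and 4.66. Such short RNAs lie inside introns of host genes, and reads of the host transcript can be counted for them.

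**Figure D2:**
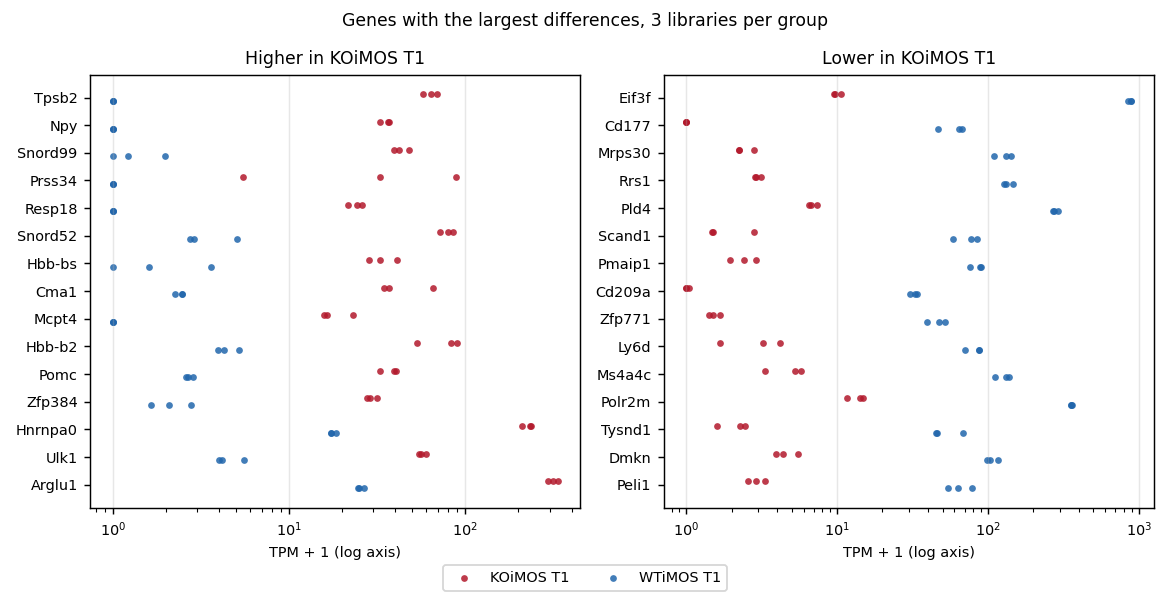
The 15 genes with the largest increases (left) and decreases (right) in KOiMOS T1 cells, among genes called whose libraries did not overlap, are plotted as TPM + 1 on a log axis with 1 point per library, KOiMOS in red and WTiMOS in blue. The 3 libraries of a genotype lie close together for most genes, with Prss34 in KOiMOS the widest.

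The DNA motif TGACCA, bound by the zinc fingers of Bcl11a, was looked for on both strands (TGGTCA on the other) from 250 bases before to 50 bases after each gene's start in RefSeq promoters of GRCm38.p6. It was present in 13.6% of 32851 promoters and in 13.1% of those of 9040 tested genes. Among genes named for the size of their difference it was present in 2 of 10 higher genes with a promoter entry (Cma1 and Prss34) and in 2 of 12 lower ones (Scand1 and Cd209a). A match describes letters and is not evidence of a bound site. The 120 bases around the match are shown, 5′ to 3′ on the gene's own strand, for the 3 genes whose match lies upstream of the start, with the match in capitals. The match begins 139 bases before the start in Scand1 and 162 bases before it in Cd209a, and Prss34, the mast cell and basophil protease described with its lineage, it begins 130 bases before the start.
Scand1 (chr2:156312781-156312900, minus strand): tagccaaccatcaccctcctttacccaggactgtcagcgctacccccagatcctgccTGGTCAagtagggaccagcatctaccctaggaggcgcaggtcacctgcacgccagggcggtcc
Cd209a (chr8:3749084-3749203, minus strand): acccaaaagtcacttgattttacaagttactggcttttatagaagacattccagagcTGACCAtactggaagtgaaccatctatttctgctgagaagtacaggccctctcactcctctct
Prss34 (chr17:25298207-25298326, plus strand): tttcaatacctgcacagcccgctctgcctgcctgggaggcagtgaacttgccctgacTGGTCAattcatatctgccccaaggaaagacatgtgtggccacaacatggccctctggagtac

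Genes of the monocyte and macrophage lineage were lower in KOiMOS T1 cells: 16 of 24 tested were called lower and 7 higher, with a median log2 difference of -1.67 (0.12 in T2 cells). In bulk libraries fewer cells of a kind and less RNA per cell cannot be told apart. Ly6c2, the surface antigen of inflammatory monocytes, was at 103, 95.7 and 102 TPM in KOiMOS and 1532, 1539.7 and 1412 in WTiMOS (log2 -3.88 ± 0.05, SE, adjusted p = 2.72e-10). Irf8, the factor that directs monocyte and dendritic cell fate and a reported Bcl11a-responsive gene, was at 31.9, 32.01 and 31.9 against 231, 233 and 241 (log2 -2.84 ± 0.054, SE, adjusted p = 3.91e-09). For both genes the lowest WTiMOS library lay several times above the highest KOiMOS library.

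Receptors and other products of these cells were lower too. Csf1r, the receptor for macrophage colony-stimulating factor, was at 8.67, 7.42 and 7.20 TPM against 50.2, 53.8 and 57.2 (log2 -2.64), and Ccr2, the chemokine receptor that lets monocytes leave the marrow, at 3.21, 2.51 and 3.95 against 40.8, 44.4 and 37.8 (log2 -3.33). Ly86, the partner of an innate immune receptor, was at 7.27, 9.56 and 9.21 against 138, 121 and 109.6 (log2 -3.68). Ms4a6c (log2 -2.68) and its relative Ms4a4c, at 2.31, 4.77 and 4.25 against 137, 131 and 110.3, were lower as well. The 16 lower genes did not take all macrophage genes with them. The complement gene C1qa was higher, at 29.7, 31.3 and 26.8 against 7.17, 4.70 and 4.50 TPM (log2 2.25), as were Hmox1, which degrades heme (log2 1.65), and the adhesion molecule Vcam1 (log2 1.60), all 3 chosen after their values were seen. The 6 monocyte and macrophage markers checked went both ways. Adgre1, a surface receptor of macrophages, was at 3.06, 3.49 and 2.84 TPM against 12.8, 13.3 and 10.3, and Fcgr1, an activating Fc receptor, averaged 0.750 against 3.34. C1qb averaged 30.5 against 9.44 and C1qc 9.14 against 10.4. Their sum with Ccr2 and C1qa was 74.2 to 79.0 TPM in KOiMOS and 68.3 to 89.8 in WTiMOS, so opposite differences lie behind sums that overlap.

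Most members differed between the cell types: 16 of the 24 had a T1 difference called below the T2 difference, and 3 above it, where 20.9% of all genes were called in either direction. Ly6c2 gave log2 0.30 in T2 cells, with 216, 172 and 170.0 TPM in KOiMOS and 187, 204 and 88.98 in WTiMOS (difference of the contrasts log2 -4.18 ± 0.35, SE, adjusted p = 2.28e-05). For Irf8 that difference was log2 -2.25 (adjusted p = 3.59e-07), and for Csf1r -2.58 (adjusted p = 0.000835). In all 3 genes the WTiMOS T1 libraries were high and the other 9 libraries low. WTiMOS T1 cells of 24-month mice, in another table, averaged 2149 TPM of Ly6c2 but 7.35 of Irf8.

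Dendritic cell genes were lower for 8 and higher for 2 of 12 tested (1 higher without KOiMOS T1 replicate 1, median log2 -0.59, and -0.35 in T2). Pld4, a nuclease of plasmacytoid dendritic cells and related myeloid cells, gave the clearest difference between the cell types: 5.54, 6.35 and 5.68 TPM in KOiMOS T1 and 290.3, 272 and 268 in WTiMOS T1 (log2 -5.34 ± 0.08, SE, adjusted p = 7.17e-10), against 6.72, 8.58 and 8.22 and 8.84, 11.3 and 8.44 in T2 (difference of the contrasts log2 -5.09 ± 0.18, SE, adjusted p = 1.69e-09). Cd209a, a lectin of monocyte-derived dendritic cells, was at 29.5, 33.01 and 31.8 TPM in WTiMOS T1 and at 0.0461, 0 and 0 in KOiMOS T1 (adjusted p = 1.9e-08). Cd209a passed the filter on low values only through WTiMOS libraries, so it could only be lower. Spib, a factor of plasmacytoid and B cells, was lower (0.509, 0.560 and 0.614 against 3.36, 7.60 and 7.63, log2 -2.14), and its T1 and T2 contrasts were not called as different. Mature dendritic cell markers were near 0 in both genotypes, with Siglech at 0 in all 6 libraries and a sum over 4 markers of 1.12 to 1.41 TPM in KOiMOS and 1.08 to 2.16 in WTiMOS. Dmkn, best known from epidermis, had the same pattern: 3.40, 4.48 and 2.91 against 97.2, 103 and 116 in T1 (log2 -4.54 ± 0.14, SE, adjusted p = 3.29e-08) and 6.52, 4.31 and 5.21 against 4.69, 4.87 and 4.53 in T2.

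MHC class II genes, which present antigen, were lower for 7 and higher for 2 of 9 (1 higher without KOiMOS T1 replicate 1 or 2, or WTiMOS T1 replicate 1 or 3). H2-DMb1 was at 57.5, 53.2 and 60.3 TPM against 149, 130.4 and 149 (log2 -1.31 ± 0.076, SE, adjusted p = 1.02e-06) and H2-Ab1 at 43.8, 46.95 and 42.2 against 79.3, 78.8 and 86.9 (log2 -0.87). H2-DMa (log2 -0.47) and H2-DMb2 (log2 -1.06) were lower too. Their T2 differences had the same sign, at log2 -1.51, -1.22, -1.14 and -1.21, and that of H2-DMa was called as larger than in T1 (difference of the contrasts log2 0.66 ± 0.074, SE, adjusted p = 3.07e-05).

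Genes of the primary granules and of neutrophil priming were lower for 16 and higher for 5 of 22 tested (median log2 -0.79, and -0.11 in T2). For 13 the T1 difference was called below that in T2, where 20.9% of all genes were called in either direction. Elane, which encodes neutrophil elastase, was at 617, 647 and 683 TPM against 3097, 3262 and 2673 (log2 -2.21 ± 0.07, SE, adjusted p = 3.87e-08), and its neighbour in the granule, Prtn3, at 674, 667 and 699.5 against 1778, 1722 and 1662 (log2 -1.34). Hp, the hemoglobin scavenger haptoglobin, was at 22.5, 26.5 and 24.2 against 401, 396 and 353 (log2 -3.92). Igsf6 and the inhibitory lectin Clec12a had differences of log2 -3.19 and -2.63. Myeloperoxidase, Mpo, the most abundant granule enzyme of the list, went the other way by a small amount (2503, 2346 and 2515 against 2183, 2231 and 2156, log2 0.16), so the granule programme was not lower throughout. Elane and Mpo were chosen after their values were seen.

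Genes of mature neutrophils were lower for 8 and higher for 3 of 14. Cd177, a surface protein of neutrophils, was at 63.2, 66.2 and 45.8 TPM in WTiMOS and listed at 0 in the 3 KOiMOS libraries (adjusted p = 2.12e-08). Cd177 passed the filter on low values only through WTiMOS libraries, so it could only be lower. The near-identical receptor genes Mrgpra2b and Mrgpra2a, between which reads may be split, were at 3.49, 3.94 and 4.27 against 81.8, 74.5 and 86.8 and 1.79, 2.23 and 1.88 against 36.4, 34.1 and 36.6. Padi4, which citrullinates histones, was higher (111, 114 and 119 against 31.3, 46.4 and 35.2, log2 1.60). Markers of end-stage neutrophils (Camp, Ltf, Ngp and Retnlg, 4 of 5 listed) summed to 2.66 to 2.98 TPM in KOiMOS and 11.1 to 145 in WTiMOS, with Retnlg at 0 in WTiMOS, and their part in the result was not tested. When each table was given its own spread, 4 rather than 8 of this list were called lower.

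B lineage genes showed the largest median difference of any list, log2 -3.02 (-1.81 in T2), with 13 lower and 2 higher of 16 tested. Vpreb1 and Igll1 encode the surrogate light chain of the pre-B cell receptor. Vpreb1 was at 9.55, 9.34 and 12.2 TPM against 193, 161 and 268 (log2 -4.17 ± 0.18, SE, adjusted p = 1.6e-07), and Igll1 at 13.3, 9.02 and 9.97 against 219, 243 and 320.1 (log2 -4.47). Cd79a, a signalling chain of the receptor, was at 7.94, 3.79 and 5.58 against 133, 119 and 157 (log2 -4.38), and its partner Cd79b at 75.2, 75.9 and 76.6 against 239, 212 and 216 (log2 -1.54). The 3 KOiMOS libraries were below the 3 WTiMOS libraries for these 4 genes, and their T2 differences had the same sign. Ebf1, the factor that commits cells to the B lineage, was at 1.99, 1.16 and 1.39 against 14.2, 16.7 and 24.4 (log2 -2.93). The 2 higher genes, named after their values were seen, were Cd37, a membrane protein of mature leukocytes (log2 0.64), and Jchain, of antibody-secreting cells, which varied widely among KOiMOS libraries (21.5, 38.9 and 6.08 against 0, 2.42 and 0.0271, log2 3.61 ± 0.67, SE, adjusted p = 0.00168). Of B cell markers, Pax5, the factor that holds B cell identity, was at 0.394, 0.472 and 0.300 TPM in KOiMOS and 2.34, 15.98 and 5.53 in WTiMOS, and Ms4a1, of mature B cells, was at 0 in WTiMOS. The part of such cells in the result was not tested.

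Lymphoid priming genes were lower for 15 and higher for 5 of 23 (median log2 -0.77, and -0.40 in T2). Dntt, the polymerase that adds bases at receptor gene joints, was at 14.2, 13.5 and 11.7 TPM against 191, 155 and 170.2 (log2 -3.62 ± 0.10, SE, adjusted p = 2.16e-08), and Il7r, the receptor for interleukin 7, at 0.631, 1.09 and 0.768 against 14.1, 13.2 and 14.6 (log2 -3.04). Ly6d, which marks early B-biased progenitors, was at 3.20, 2.21 and 0.682 against 86.8, 69.3 and 86.3 (log2 -4.84). Cd69, an early activation antigen, was at 45.4, 49.4 and 56.5 against 318, 344 and 311 (log2 -2.67), and Cnn3 at 32.2, 34.3 and 32.1 against 161, 133 and 152 (log2 -2.14). The T1 difference lay below the T2 difference for Dntt (difference of the contrasts log2 -1.72, adjusted p = 2.56e-05), Il7r (-1.93, adjusted p = 0.00578, but 0.0600 with a pseudocount of 0.1 TPM) and Cd69 (-1.24, adjusted p = 5.94e-06), and Cnn3 was not called there. For Ly6d it was log2 -1.29 (adjusted p = 0.0244), but with that pseudocount it was 1.29 (adjusted p = 0.129). Of 15 reported Bcl11a-responsive genes 9 were lower and 4 higher, and Irf8, Dntt, Il7r and Ebf1 had the smallest p of that list.

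T, NK and innate lymphoid genes were lower for 14 and higher for 2 of 18 (0 higher without KOiMOS T1 replicate 1, and 1 without any other of the 6 libraries, median log2 -0.92, and -0.95 in T2). Tcf7, the factor that starts the T cell programme, was at 1.63, 1.28 and 2.76 TPM against 39.3, 30.1 and 28.4 (log2 -3.56 ± 0.21, SE, adjusted p = 1.01e-06), and Cd7 at 2.04, 3.04 and 2.07 against 17.2, 24.9 and 22.8 (log2 -2.74). Gzma, a granzyme of killer cells, was listed at 0 in KOiMOS and at 4.08, 4.37 and 5.26 in WTiMOS. Genes of mature T cells were few in both genotypes: 5 markers summed to 3.44 to 4.37 TPM in KOiMOS and 14.3 to 16.2 in WTiMOS, with Cd8a at 0 in all 6 libraries and Cd3e and Cd3g at 0 in KOiMOS. The 3 NK cell markers summed to 0.645 to 1.66 TPM in KOiMOS and 6.65 to 9.48 in WTiMOS, and the part of either cell type in the result was not tested. With a filter of 5 TPM, which left fewer genes to test, 9 rather than 14 were called lower.

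The Id proteins, which block E proteins, were lower. Id1 was at 1.86, 2.36 and 2.80 TPM against 29.998, 30.9 and 38.1 (log2 -3.35), Id3 at 2.33, 0.9998 and 1.41 against 27.9, 26.3 and 28.7 (log2 -3.50) and Id2 at 8.90, 8.28 and 6.49 against 47.95, 28.4 and 50.1 (log2 -2.25). In T2 cells Id2 had the opposite sign (log2 1.43), with a difference of the contrasts of log2 -3.68 (adjusted p = 6.31e-07). The E protein gene Tcf3 was lower (11.4, 10.2 and 12.4 against 40.98, 42.6 and 42.8, log2 -1.81) and Mycn, a relative of Myc, higher (117, 118 and 127 against 52.9, 48.1 and 53.4, log2 1.21). Over the whole list of E proteins, Id inhibitors and their partners 9 of 17 were higher and 6 lower.

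Mast cell, basophil and eosinophil genes were higher for 12 and lower for 1 of 26 tested, and 13 were not called (median log2 0.74, and 1.37 in T2). Over all tested genes 38.0% were called higher and 28.3% lower. Tpsb2, Mcpt4 and Prss34, listed at 0 in WTiMOS T1, passed the filter only through KOiMOS libraries, so they could only be higher. Tpsb2, a mast cell tryptase that reads may not tell from its close relatives, was at 62.6, 56.3 and 67.8 TPM in KOiMOS and listed at 0 in the 3 WTiMOS libraries (adjusted p = 6.48e-09). The chymases Cma1 and Mcpt4 were at 35.8, 33.4 and 64.5 against 1.25, 1.47 and 1.47 (log2 4.19 ± 0.23, SE, adjusted p = 7.29e-07) and at 15.4, 22.01 and 14.8 with WTiMOS listed at 0. KOiMOS T2 libraries held far more of all 3, with 1780.2 to 1913 TPM of Tpsb2, 1051 to 1120.4 of Cma1 and 457 to 513 of Mcpt4. Among these, Mcpt4 was called as differing between the contrasts (log2 -3.53, adjusted p = 0.000313, but -1.66 and 0.450 with a pseudocount of 0.1 TPM), and Tpsb2 and Cma1, which varied among WTiMOS T2 libraries, were not (adjusted p = 0.709 and 0.167).

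The lineage did not move as one in T1 cells. Prss34, a protease of basophils and some mast cells, was uneven among KOiMOS T1 libraries (87.4, 31.9 and 4.50) and listed at 0 in WTiMOS T1. Cpa3, the mast cell carboxypeptidase, did not pass the test in T1 (250.4, 234 and 257 against 232, 248 and 223, log2 0.07 ± 0.056, SE, adjusted p = 0.269), while in T2 the values were 897, 1029 and 995 and 125, 131 and 149 (difference of the contrasts log2 -2.77 ± 0.10, SE, adjusted p = 1.69e-09). Fcer1g, a signalling chain of the IgE receptor, gave the same pattern, at 142, 138 and 159 against 142, 147 and 141 in T1 (adjusted p = 0.709) and 405, 371 and 389 against 93.5, 98.5 and 97.8 in T2. Kit, the stem cell factor receptor of progenitors and mast cells, was higher in T1 (417, 410.4 and 410.1 against 150.0, 165 and 147, log2 1.42 ± 0.051, SE, adjusted p = 7.86e-08) and T2 cells gave log2 1.30. Of the 26, 9 had a T1 difference called below that in T2 and 2 above it, where 20.9% of all genes were called. The 7 mast cell and basophil markers summed to 177 to 269.7 TPM in KOiMOS T1 and 18.6 to 31.2 in WTiMOS T1, where Prss34, Mcpt4 and Tpsb2 were at 0. The 3 eosinophil markers summed to 2.06 to 18.7 and 2.69 to 4.15 TPM. Their part in these results was not tested.

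Erythroid genes were higher for 16 of 22 tested, and the other 6 were not called (median log2 0.80, and 0.86 in T2). Of 12 globin genes listed, 5 passed the filter on low values, and these were called higher. The embryonic genes Hba-x, Hbb-bh1 and Hbb-y were at 0 in the T1 libraries of both genotypes, and the adult alpha gene Hba-a1 averaged under 0.01 TPM in both. The adult beta globin genes are near-identical and reads may be split between them: Hbb-b2 was at 89.05, 81.4 and 52.4 TPM against 4.17, 3.28 and 2.97 (log2 4.05 ± 0.20, SE, adjusted p = 3.66e-07) and Hbb-bs at 31.8, 39.7 and 27.4 against 0, 2.61 and 0.602 (log2 4.23). Summed over the family, adult beta globin RNA was 143 to 151 TPM in KOiMOS T1 and 9.23 to 11.8 in WTiMOS T1, against 1899.7 to 2059 and 29.6 to 30.7 in T2. The globin difference was smaller in T1 than in T2 for Hbb-b2 (difference of the contrasts log2 -2.33, adjusted p = 2.46e-05) and Hbb-b1 (-3.50, adjusted p = 0.0196, but 0.0516 without KOiMOS T1 replicate 2 and 0.0524 with the replicate number as a block). Hemgn, a nuclear protein of blood progenitors, was at 39.4, 37.02 and 38.7 against 18.5, 15.1 and 19.3 (log2 1.09), and the transferrin receptor Tfrc at 19.4, 19.3 and 16.9 against 9.11, 8.88 and 8.46 (log2 0.99). The 6 erythroid markers outside the globins summed to 44.6 to 50.5 TPM in KOiMOS and 21.7 to 25.9 in WTiMOS, with Slc4a1 at 0 in both. Most of that sum was Hemgn. Alas2 averaged 1.07 TPM in KOiMOS T1 and 1.05 in WTiMOS T1, and Epor 4.87 and 0.676.

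Megakaryocyte and platelet genes were higher for 13 and lower for 2 of 19 (median log2 0.80, and 0.35 in T2). Itga2b, the integrin CD41 of megakaryocytes and early progenitors, was at 89.7, 87.8 and 85.5 TPM against 23.5, 22.6 and 20.8 (log2 1.93 ± 0.076, SE, adjusted p = 1.12e-07), with a T1 difference above that in T2 (log2 1.43 ± 0.11, SE, adjusted p = 9.14e-07). Itgb3, the integrin partner of Itga2b, was at 10.7, 10.3 and 10.1 against 2.70, 3.11 and 2.28 (log2 1.63). The platelet glycoprotein Gp5 went the other way, at 0, 0.184 and 0.179 against 4.53, 6.57 and 3.44 (log2 -2.35). The 5 megakaryocyte markers summed to 48.8 to 60.2 TPM in KOiMOS and 9.14 to 18.4 in WTiMOS.

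Stem cell and quiescence genes were higher for 25 and lower for 4 of 37 tested (median log2 0.73, and -0.044 in T2). For 19 the T1 difference was called above that in T2, where 20.9% of all genes were called in either direction. After rescaling the list had 22 higher and 4 lower, and 15 above and 2 below. Angpt1, a ligand of the Tie2 receptor, was at 261, 248 and 248 TPM against 56.97, 61.7 and 75.4 (log2 1.96 ± 0.094, SE, adjusted p = 3.35e-07) and Ifitm1, a membrane protein of stem cells and the interferon response, at 727, 767 and 816 against 308, 343 and 310.3 (log2 1.26). Mecom, a transcription factor of long-term stem cells, was at 26.8, 25.7 and 27.1 against 5.85, 8.14 and 5.46 (log2 1.90), Hlf at 38.6, 39.3 and 36.6 against 20.2, 19.3 and 21.3 (log2 0.88) and Procr, the stem cell surface receptor, at 47.6, 48.8 and 47.8 against 20.3, 13.8 and 12.3 (log2 1.61), these 3 chosen after their values were seen. For Hlf the T2 difference had the opposite sign (log2 -0.81, difference of the contrasts log2 1.69 ± 0.14, SE, adjusted p = 2.62e-06). Of the 4 members of smallest p, 2 were lower: Nr4a1, at 78.1, 79.9 and 76.9 against 866, 826 and 833, and Egr1, at 116, 115 and 133 against 313, 322 and 310.0, and both are also immediate early genes. The 5 stem cell markers (Slamf1, Procr, Hlf, Mecom and Fgd5) summed to 116 to 119 TPM in KOiMOS T1 and 40.3 to 47.6 in WTiMOS T1.

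Surface markers used to gate MPP3 and other progenitors were higher for 13 and lower for 3 of 18 (median log2 0.66, and -0.14 in T2). Besides Kit and Itga2b, Cd27 was higher (1009, 929.9 and 986 against 394, 384 and 324 TPM, log2 1.41). Csf1r, Il7r and the inhibitory Fc receptor Fcgr2b (log2 -1.10) were the 3 lower ones. Ly6a, which encodes the sorting antigen Sca-1, was at 142, 135 and 135 against 149, 135 and 122 and did not pass the test (log2 0.02 ± 0.073, SE, adjusted p = 0.781). Flt3, by which MPP4 are told from MPP3, was slightly higher in T1 (119, 116 and 114 against 68.5, 91.1 and 103, log2 0.42, adjusted p = 0.0163), with the opposite sign in T2 (log2 -1.06, difference of the contrasts log2 1.48 ± 0.20, SE, adjusted p = 0.000173). Cytokine and growth factor receptors as a list were higher for 25 and lower for 11 of 42, and Il6ra, the interleukin 6 receptor, was lower (24.6, 25.1 and 27.2 against 108, 111 and 113, log2 -2.07).

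Proliferation genes were lower for 37 and higher for 7 of 49 tested (median log2 -0.63, and 0.055 in T2). For 36 the T1 difference was called below that in T2, with 1 above, where 20.9% of all genes were called. After rescaling the list had 38 lower and 7 higher, and 42 were below. Rrm2, which makes deoxynucleotides for DNA synthesis, was at 88.7, 93.1 and 97.8 TPM against 381, 383 and 407 (log2 -2.06 ± 0.053, SE, adjusted p = 1.34e-08), and the histone chaperone Asf1b, outside the list, at 65.5, 65.2 and 68.02 against 325, 320.0 and 332 (log2 -2.28). Mitotic genes were lower too. Plk1, the polo kinase, was at 46.6, 44.6 and 47.9 against 162, 159 and 154 (log2 -1.75), the kinase Aurkb at 87.9, 83.9 and 90.5 against 238, 226 and 233 (log2 -1.40), and the spindle protein Nusap1 at 53.3, 56.2 and 55.6 against 219, 197 and 224 (log2 -1.93). For these 5 genes all 3 KOiMOS T1 libraries were below the other 9, and all 3 WTiMOS T1 libraries were above the other 9. Cdk6, a kinase that brings quiescent stem cells into cycle and was chosen after its values were seen, went the other way (312, 306 and 289 against 136, 147 and 169, log2 1.004).

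**Figure D3:**
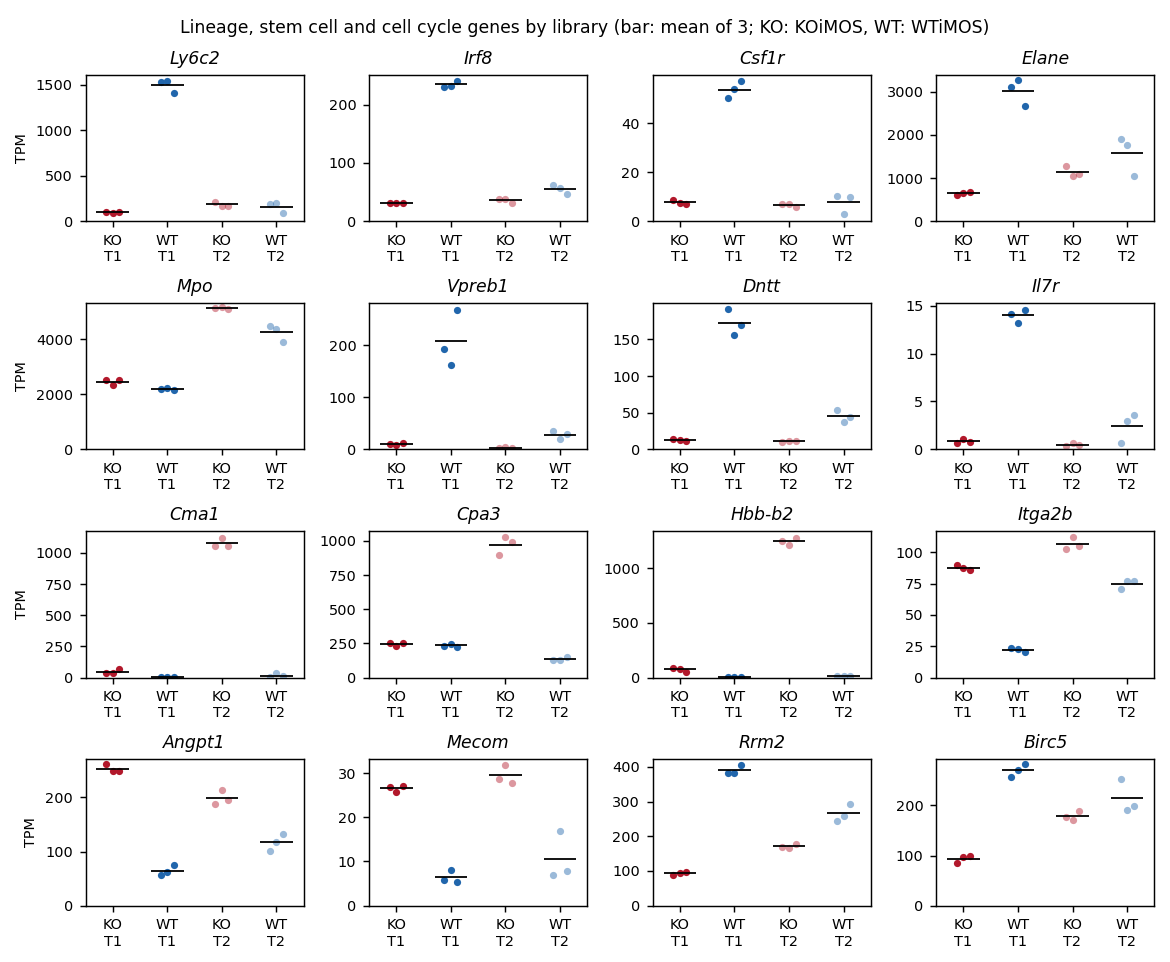
TPM of 16 lineage, stem cell and cell cycle genes is plotted per library on linear axes from 0, for KOiMOS and WTiMOS in T1 and T2 cells, with a bar at the mean of 3. Ly6c2, Irf8, Csf1r, Vpreb1, Dntt and Il7r are highest in the WTiMOS T1 libraries, Cma1, Cpa3 and Hbb-b2 are highest in KOiMOS T2, and Rrm2 and Birc5 are lowest in KOiMOS T1.

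Transcription factors of the myeloid, Ikaros and RUNX families were split, with 12 higher and 13 lower of 33. Spi1, the master regulator PU.1, was at 115, 122 and 121 TPM against 476, 424 and 400.0 (log2 -1.85 ± 0.065, SE, adjusted p = 6.56e-08), and Klf6 at 101, 98.1 and 97.3 against 291, 261 and 274 (log2 -1.47). Etv6, required for stem cell survival in adult marrow, was at 88.9, 88.7 and 88.5 against 25.9, 23.3 and 26.1 (log2 1.78). Spi1 and Klf6 had T2 differences of log2 -1.62 and -1.55, and their contrasts were not called as different.

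Immediate early genes, which respond within minutes to growth signals or to handling of cells, were lower for 26 and higher for 3 of 31 (median log2 -1.27, and -1.10 in T2). Fos was at 739.9, 713 and 721 TPM against 3381, 3345 and 3282 (log2 -2.20 ± 0.03, SE, adjusted p = 3.48e-10), Junb at 364, 361 and 368 against 1592, 1315 and 1393 (log2 -1.97), and the phosphatase Dusp1 at 313, 299.8 and 312 against 2364, 2312 and 2225 (log2 -2.90). Nr4a1, an orphan nuclear receptor, gave log2 -3.41 in T1 and -3.31 in T2. Both cell types had a median of this size. Of the 31, 10 were called as differing between them, 5 in each direction, where 20.9% of all genes were called. WTiMOS cells of other tables held less: Nr4a1 averaged 34.8 to 148 TPM over the 6 groups outside these 2 tables. NF-kappa-B and inflammation genes were lower for 14 and higher for 4 of 31 (7 higher with GC and length trends removed). Nfkbia, the inhibitor that NF-kappa-B itself induces, was at 145, 147 and 152 against 329, 312 and 313 (log2 -1.10 ± 0.045, SE, adjusted p = 1.34e-07), and Nfkbid, Ccl6 and Socs3 had differences of log2 -1.55, -1.93 and -1.18.

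Genes of p53 and of cell death were split. Pmaip1, which encodes the death-promoting protein Noxa, had the largest difference, at 1.41, 0.950 and 1.89 TPM against 88.1, 74.7 and 88.4 (log2 -5.14 ± 0.16, SE, adjusted p = 3.46e-08), and T2 cells gave log2 -2.04 (difference of the contrasts log2 -3.10 ± 0.23, SE, adjusted p = 9.14e-07). Plk2 (log2 -2.10), Btg2 (-1.79) and Bax (-0.62) were lower as well, but over the p53 target list 7 of 24 were higher and 8 lower. Among Bcl2 family and other survival genes 7 of 21 were higher (3 without KOiMOS T1 replicate 2) and 7 lower, with Xiap, a caspase inhibitor, lower (log2 -1.19) and Bad, which promotes death, lower (-0.78). Heat shock and chaperone genes were also split, 8 higher and 9 lower of 25. Hsp90ab1 was at 2742, 2605 and 2371 against 1014, 981 and 960.1 (log2 1.38) and Hsp90aa1 higher by 0.86, while Hspa5, of the endoplasmic reticulum, and Dnajb1 were lower (log2 -0.77 and -0.82).

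Cytosolic ribosomal protein genes were higher for 69 and lower for 5 of 79 (median log2 0.85, and 0.93 in T2), although processed copies in the genome make single genes uncertain. Rpl39 was at 1811, 1845 and 1713 TPM against 388, 420.3 and 417 (log2 2.13 ± 0.044, SE, adjusted p = 4.87e-09), and Rplp2 and Rps10 were higher by log2 1.69 and 1.66. Together the 79 genes held 189347 to 198114 TPM in KOiMOS T1 and 135414 to 136362 in WTiMOS T1. Genes of ribosome biogenesis and Myc targets were higher for 23 and lower for 12 of 42. Srm, which makes spermidine, was at 79.1, 75.4 and 77.2 against 387, 402 and 437 (log2 -2.39), the nucleolar methyltransferase Fbl at 156, 169.8 and 194 against 647, 626 and 621 (log2 -1.86), and the helicase Ddx21 at 71.5, 73.4 and 71.4 against 22.5, 27.3 and 27.1 (log2 1.46). T2 differences of these 3 had the same signs (log2 -2.26, -1.58 and 1.25).

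Nuclear genes of oxidative phosphorylation were lower for 43 and higher for 18 of 75, by small amounts (median log2 -0.21, and -0.063 in T2). Ndufb8, of complex I, was at 403, 422 and 422 TPM against 688, 704 and 689 (log2 -0.74 ± 0.036, SE, adjusted p = 3.75e-07) and Sdhb, of complex II, was lower (log2 -0.68), while Sdhd, of the same complex, was higher (1.02) as was Atp5g2 of the ATP synthase (0.87). Glycolysis genes were higher for 13 and lower for 5 of 26. Hexokinases start glycolysis: Hk3 was at 291, 279 and 297 against 51.5, 42.04 and 36.1 (log2 2.73 ± 0.11, SE, adjusted p = 1.3e-07) and Hk1 at 343, 318 and 330.0 against 115, 118 and 128 (log2 1.45). Gapdh was higher (log2 0.85) and Eno1 lower (-0.74).

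Of the other lists, galectin, annexin and S100 genes were lower for 15 and higher for 4 of 24. Lgals3, a galectin of macrophages, was at 4.38, 6.13 and 5.59 TPM against 56.6, 38.2 and 55.4 (log2 -2.99) and Lgals1 at 323, 333 and 370.1 against 799, 810.0 and 781 (log2 -1.22), and both had T2 differences of the opposite sign (log2 0.79 and 0.22). Anxa5 was lower (log2 -0.94) and Lgals9 higher (0.76). Interferon response genes were higher for 14 and lower for 10 of 40, and 16 were not called. Both shares lay below those over all tested genes (38.0% higher and 28.3% lower). Ddx58, a sensor of viral RNA, was higher (log2 1.32), as was Irgm1 (0.80), and Ifi27l2a was lower (-1.65). Replication-dependent histone genes, which lack poly(A) tails and have near-identical copies, were higher for 19 and lower for 15 of 65, and 31 were not called. These shares too lay below those over all tested genes. Of the 65, 25 had a T1 difference called below that in T2, where 20.9% of all genes were called in either direction. Without KOiMOS T1 replicate 3, 12 histone genes were called higher. Hist1h4d was higher (log2 1.32) as were Hist1h1e (1.04) and Hist1h1d (1.24), and Hist1h2bj was lower (-1.26). Stromal and endothelial genes were higher for 6 and lower for 1 of 7, and the first 3 named are also genes of stem cells: Emcn was at 31.6, 31.9 and 32.8 against 5.99, 6.56 and 4.74, Eng at 200.3, 192 and 190.4 against 107, 110.3 and 102 and Tie1 at 56.1, 55.6 and 53.8 against 12.1, 19.7 and 16.1, with Pdgfrb, of pericytes and other mesenchymal cells, at 28.97, 27.2 and 30.7 against 10.04, 12.4 and 13.3. Defining stromal and endothelial markers were near 0, with a sum over 6 of 1.38 to 2.51 TPM in KOiMOS and 0 to 1.14 in WTiMOS, and the part of such cells in the result was not tested.

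**Figure D4:**
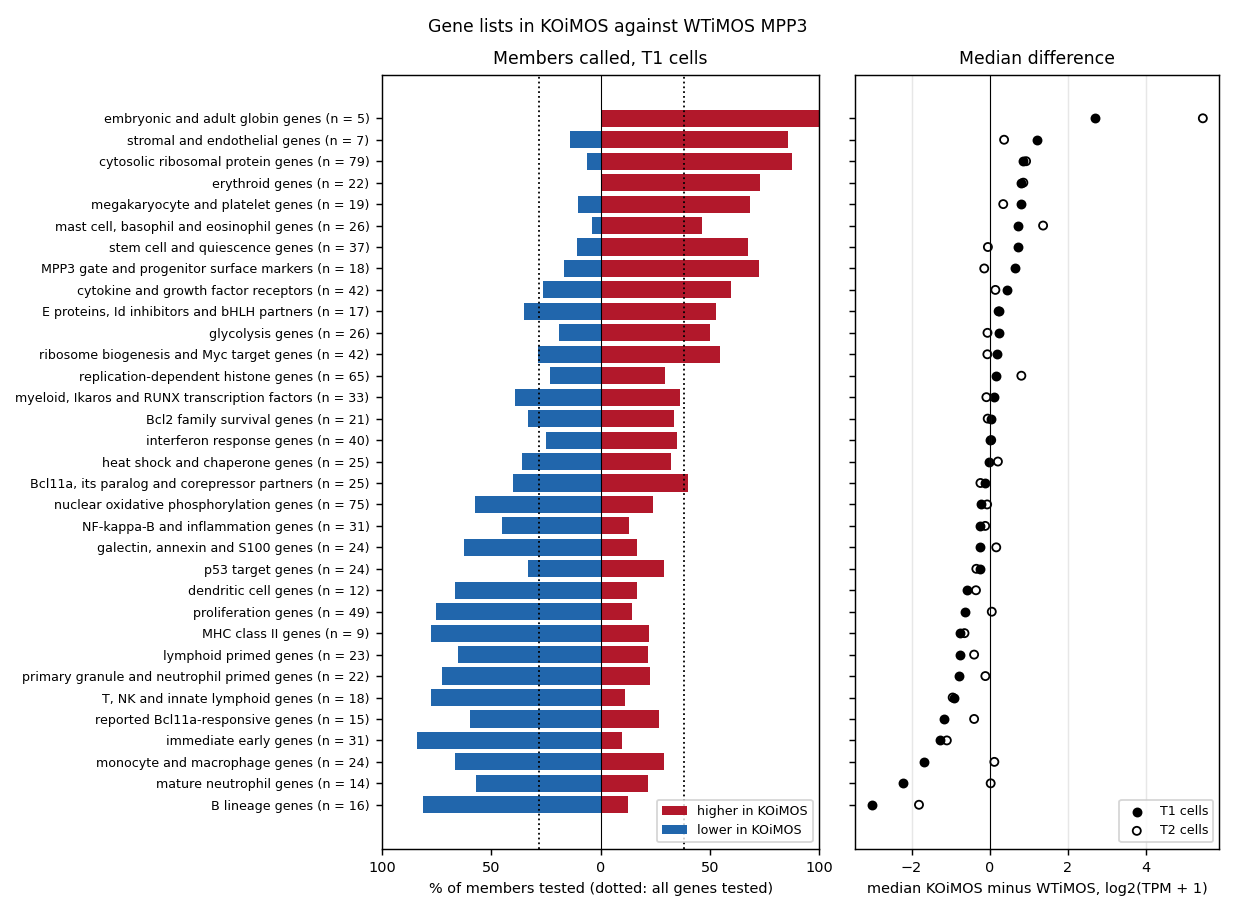
For 33 gene lists, the left panel gives the percent of tested members called higher (red, to the right) or lower (blue, to the left) in KOiMOS T1 cells, with dotted lines at the shares over all tested genes (38.0% and 28.3%), and the right panel the median log2 difference in T1 (filled) and T2 cells (open). B lineage, mature neutrophil and monocyte lists lie lowest in T1, while the T2 medians of the monocyte, mature neutrophil, proliferation and stem cell lists lie between -0.044 and 0.12.

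RNAs of neurons were among the largest increases. Npy, a neuropeptide, was at 35.3, 31.8 and 35.9 TPM in KOiMOS T1 and listed at 0 in WTiMOS T1 (adjusted p = 1.56e-08), and Resp18, of secretory granules in neuroendocrine cells, at 23.3, 20.7 and 24.8 against 0 (adjusted p = 4.04e-08). Both passed the filter on low values only through KOiMOS libraries, so they could only be higher. Pomc, the precursor of appetite and stress peptides, was at 39.4, 31.7 and 38.4 against 1.59, 1.66 and 1.87 (log2 3.79). A list of 27 neuron and neuropeptide genes, put together after these values were seen, summed to 174, 153 and 177 TPM in KOiMOS T1, with 14 of 27 averaging at least 1 TPM and 4 at 0, and to 2.27 to 3.24 TPM in WTiMOS T1, with 19 at 0. KOiMOS T2 libraries 1 and 2 held 179.9 and 268 TPM and library 3 held 2.40. The 8 WTiMOS groups of the series held 2.25 to 9.79 TPM. In all, 49 genes stood at 1 TPM or more in every KOiMOS T1 library and at 0 in every WTiMOS T1 library, 9 of them in the neuron list, and 4 genes showed the reverse. WTiMOS T1 libraries listed fewer genes above 0 as a whole, and the part of that in these counts was not tested. KOiMOS T2 library 3 listed 34 of the 49 at 0, and libraries 1 and 2 listed 0 and 1. KOiMOS T2 library 3 stood apart from the other 5 KOiMOS libraries. A sum over 6 glial genes was 19.3 to 20.1 TPM in KOiMOS T1, 4.84 to 7.30 in WTiMOS T1 and 14.8 to 19.0 in WTiMOS T2, and most of it was Gja1, a gap junction gene that other cells also express, with means of 17.4 TPM in KOiMOS T1 and 5.78 in WTiMOS T1. Gfap, of astrocytes, averaged 0.393 and 0.0111 TPM, and Aqp4 and Mog were at 0 in the T1 libraries of both genotypes. The T1 counts do not use KOiMOS T2 library 3, and without it 1967 rather than 2632 genes were called as differing between the contrasts. Leaving out any other single KOiMOS library gave 1876 to 2172, so that drop was not particular to library 3. The part of such RNA in the other results was not tested.

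**Figure D5:**
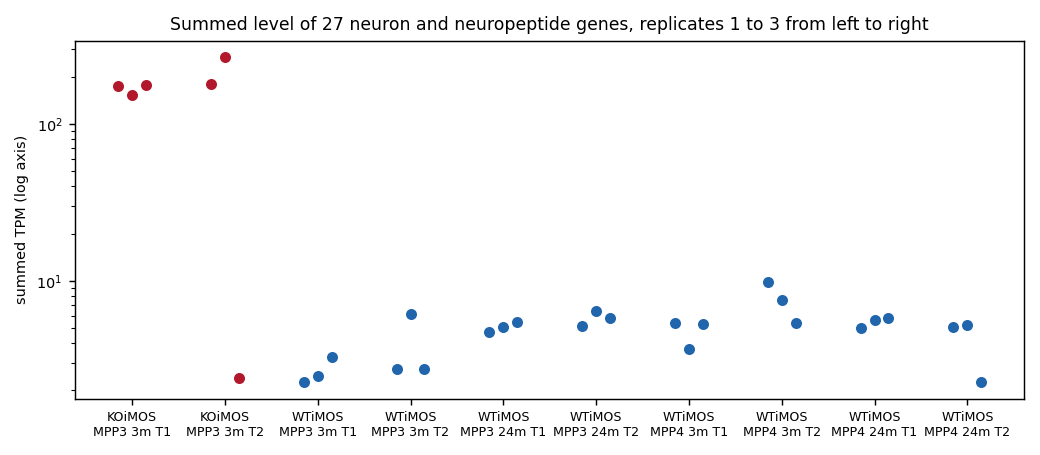
The summed TPM of 27 neuron and neuropeptide genes is plotted on a log axis for every library of the 10 groups, replicates 1 to 3 from left to right, KOiMOS in red and WTiMOS in blue. The 3 KOiMOS T1 libraries and 2 of 3 KOiMOS T2 libraries lie between 153 and 268 TPM, and every other library lies below 10 TPM.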

How the data were processed

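RNA-seq levels of 24421 genes were taken as TPM from the tables the authors deposited. Per the submitters' processing notes, HISAT2, StringTie, featureCounts and DESeq2 were used with the mouse build mm10; no source used here says which tool gave the TPM values or names tool versions, strand or read depth. A TPM is a share of its library, and each library's values have the same sum. Columns were assigned to samples by their names. Levels were analysed as log2(TPM + 1) with limma 3.58.1 in R 4.3.3 (trend and robust, 2-sided, Benjamini-Hochberg over all genes tested, called at 0.05). The filter kept genes reaching 1 TPM in 3 or more libraries: 12068 in the 6 T1 libraries and 12609 in the 12 T1 and T2 libraries. An exact 0 can be a failed estimate, so no fold change of the T1 comparison is given against a group listed at 0. Differences of the contrasts that involve such a group, as for Cd177 and Mcpt4, depend on the pseudocount. Alternatives were a pseudocount of 0.1, no filter or 5 TPM, median-ratio rescaling, fits of 12 or 30 libraries, the spread of each table alone, a replicate block, leaving out each library, and removal of GC and length trends. Same-numbered libraries of the 2 genotypes did not deviate together (r of -0.017, -0.018 and -0.015), so they were not paired.

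Named genes were Bcl11a, up to 15 per direction by size among called genes whose groups did not overlap and whose higher group averaged at least 5 TPM, up to 4 per list by smallest p, and up to 8 by smallest adjusted p between the T1 and T2 contrasts. Predicted and clone-named genes were left out of the lists by size and by the T1 and T2 contrasts. A few genes the rule names are not reported here. Other genes are cell type markers, complete a small count or were chosen after their values were seen. The comparison, gene lists and markers were chosen with earlier results of these data known, and lists are described by counts and medians without a set test. Gene positions and biotypes are from GENCODE vM21 on GRCm38 (96.1% of tested genes matched), and promoters from RefSeq on GRCm38.p6.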

Additional observations from a re-analysis of the deposited data

Results flagged for a closer look

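The genotype difference in T1 cells was called as unlike that in T2 cells for 15 named genes, with limma and Benjamini-Hochberg adjustment. They come from Bcl11a, the 15 genes per direction singled out by size and the 8 singled out by that test. The 8 were called by the rule that picked them, so the count of 15 is no result. Over all genes 20.9% were called. Each value is the T1 difference minus the T2 difference, on the log2(TPM + 1) scale. It was 0.82 for Bcl11a. Among myeloid and dendritic genes it was -5.09 for Pld4, -4.98 for Cd209a, -4.90 for Cd177 and -3.06 for Ms4a4c. Cd177 was listed at 0 in the KOiMOS libraries of T1 and T2, so its value compares only WTiMOS T1 with WTiMOS T2. The value was -1.29 for Ly6d, and among mast cell and erythroid genes -2.77 for Cpa3, -3.53 for Mcpt4, -1.97 for Fcer1g and -2.33 for Hbb-b2. With a pseudocount of 0.1 TPM, Ly6d (1.29, adjusted p = 0.129) and Mcpt4 (-1.66, adjusted p = 0.450) were not called. The other values were -3.10 for Pmaip1, -2.99 for Tpm4, which encodes a tropomyosin, -4.68 for Dmkn, -1.56 for Asf1b and 4.35 for Paqr5, a membrane progesterone receptor. Paqr5 stood at 31.4, 30.8 and 28.3 TPM in KOiMOS T1, 17.2, 18.7 and 18.2 in WTiMOS T1, 1.57, 1.96 and 1.59 in KOiMOS T2 and 27.8, 38.1 and 33.1 in WTiMOS T2, so that the KOiMOS T2 libraries were low and the other 9 were not. Tpm4 was lower in KOiMOS in T1 (log2 -1.91) and higher in T2 (1.08).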

How the results depend on the processing

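The T1 comparison called 8007 genes, 4588 higher and 3419 lower, and between 6890 and 8451 under the alternatives that kept all libraries, with each count within 1.5 times of the reported one. Leaving out each library in turn gave 6919 to 8217 called, 3874 to 4786 higher and 2974 to 3442 lower. Of 149 named genes 148 kept their direction and their side of the threshold in the T1 comparison under each alternative, and Cpa3 passed the test (log2 0.19, adjusted p = 0.0197) once GC and length trends were removed; the cause was not tested. For the difference between the T1 and T2 contrasts, 1644 genes lay above and 988 below, but 917 and 1465 after median-ratio rescaling, which moves the median over all genes from 0.14 to -0.0067. Leaving out each of the 12 libraries gave 1876 to 3527 called, 1075 to 2342 above and 780 to 1185 below. The T1 against T2 difference of Ly6d turned from log2 -1.29 to 1.29 (adjusted p = 0.129) with a pseudocount of 0.1, and the cause was not tested. Of 81 named genes called between the contrasts, 19 (Ly6d included) lost the call or turned in at least 1 alternative, and 7 of them, Hbb-bt, Fbl, Gp5, Junb, Etv6, Rps10 and Cd79b, in at least 7. A fit with replicate number as a block called 7794 genes in T1 (4479 higher, 3315 lower) and 2545 between the contrasts (1574 above, 971 below), with 0 libraries correlating best with their own number. Over the gene lists, 33 of 1530 counts under an alternative moved by more than 1.5 times, most of them counts of 4 or fewer. Depth cannot be had from TPM, so no floor of detection is given for genes listed at 0. The filter keeps genes that are high in 1 group, so counts over tested members are not counts over whole lists. A gene under 1 TPM in every T1 library of 1 genotype passed only through the other, so the filter fixed its direction. Genotype and deposited table cannot be told apart, and the labels do not name separate animals.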

Other observations

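Noncoding RNAs were higher in KOiMOS T1 cells more often than lower, by the biotypes of the GENCODE vM21 annotation. Of 99 long intergenic RNAs tested 49 were called higher and 16 lower (median log2 0.46), of 126 antisense RNAs 54 and 10 (median 0.43), and of 146 microRNA genes 65 and 8 (median 0.65). Over all tested genes 38.0% were called higher and 28.3% lower. As for small nucleolar RNAs, reads of a host transcript can be counted for a microRNA gene, so mature microRNAs were not measured here. Protein-coding genes had 4031 higher and 3234 lower of 10871 (median 0.10). In T2 cells the medians were 0.062 for intergenic, 0.045 for antisense and 0.42 for microRNA genes, and -0.045 for protein-coding genes. No source used here says whether the counting used strand, so antisense RNAs cannot be told from the genes they overlap.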
